A study of Mus musculus with 16 samples.

Results

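The NF-κB transcription factor subunits and the IκB proteins that restrain or modify them were followed gene by gene in cultured mouse astrocytes. Members were the rows of the deposited expression table with the symbols *Nfkb1*, *Nfkb2*, *Rel*, *Rela* and *Relb* (5 subunits), *Nfkbia*, *Nfkbib* and *Nfkbie* (3 classical IκB inhibitors), and *Nfkbiz* and *Bcl3* (2 nuclear IκB proteins). All 10 were found among the 16707 genes of the table. The study asked how loss of NLRX1, a mitochondrial NOD-like receptor, changes the inflammatory response of astrocytes. Primary astrocytes were purified from P6 pups with beads against the astrocyte surface antigen ACSA2, from C57BL6J wild-type (WT) mice and from NLRX1-/- mice on the same background (*Nlrx1*-/- in the text), which are global knockouts, with 4 litters of each genotype. Each litter gave a vehicle well (water) and a well with 500 ng/mL LPS, a bacterial cell wall component that acts through TLR4, together with 10 ng/mL IFNγ, both for 24 h, so that there were 4 conditions and 16 poly-A RNA libraries. Both wells of a litter came from 1 set of pooled pups, and the part of *Nlrx1* that was removed is not named in the sources used here.

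NF-κB factors are dimers of RelA (p65), c-Rel, RelB and the p50 and p52 proteins cut from the precursors p105 (*Nfkb1*) and p100 (*Nfkb2*). In resting cells IκBα (*Nfkbia*), IκBβ (*Nfkbib*) and IκBε (*Nfkbie*) hold dimers in the cytoplasm. Signals such as LPS activate the IκB kinase complex, the inhibitors are degraded and the dimers move to the nucleus, where several of their targets are genes of the system itself, among them *Nfkbia*, *Nfkb2* and *Relb*. IκBζ (*Nfkbiz*) and Bcl-3 act in the nucleus, where they bind p50 or p52 dimers and alter which genes are transcribed. In astrocytes NF-κB is known as a driver of cytokine and chemokine production.

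Some genes of this circuit carry NF-κB sequences of their own, and for this reason the promoter sequences are given first. RefSeq promoter windows, from 250 bases before to 50 after a transcription start, were at hand for 7 of the 10 genes, and *Nfkb1*, *Relb* and *Nfkbiz* had none. A search for the NF-κB consensus of 10 letters on both strands found a match in at least 1 window of 5 of the 7 genes, *Nfkb2*, *Rel*, *Nfkbia*, *Nfkbie* and *Bcl3*. Among all 27025 genes with a window 9.55% had a match, and among all 32851 windows 8.46%. *Rela* and *Nfkbib* had a window with no match. The stretches below run 5′ to 3′ on the gene's strand around a match, which is in capitals, and their positions come from matching the RefSeq (GRCm38.p6) sequence to the GRCm39 genome.
*Nfkbia*, chr12:55539442-55539471, minus strand, bases -39 to -10 from the start: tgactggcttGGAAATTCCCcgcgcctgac
*Nfkbie*, chr17:45866510-45866539, plus strand, bases -116 to -87: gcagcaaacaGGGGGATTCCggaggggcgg
*Nfkb2*, chr19:46293128-46293157, plus strand, bases -48 to -19: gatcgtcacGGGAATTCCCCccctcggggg
*Rel*, chr11:23721041-23721070, minus strand, bases -101 to -72: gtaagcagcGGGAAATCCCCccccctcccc
*Bcl3*, chr7:19556659-19556688, minus strand, bases -8 to 22: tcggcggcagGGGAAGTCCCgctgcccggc
*Nfkb2* had 3 windows with further matches that are not shown. In *Nfkb2* and *Rel* the capitals hold 11 letters because matches of both strands overlap by all letters but the last. GENCODE M39 places the stretches of *Nfkb2*, *Rel* and *Bcl3* within annotated exons of these genes, in untranslated sequence, and finds no exon at those of *Nfkbia* and *Nfkbie*. A match describes these letters only.

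Salmon assigned between 27259420 and 43752903 read pairs to transcripts in a library. Each member other than *Bcl3* rested on 114 to 3176 reads per library, and *Bcl3* on 0 to 214. *Nlrx1*, the targeted gene, lay at 4.08 to 4.44 log2 CPM in WT and at 1.09 to 2.96 in *Nlrx1*-/- astrocytes, without overlap (log2 CPM is CPM, counts scaled to TMM-adjusted library sizes, on the log2 scale with a small offset). All 10 astrocyte markers looked for were in the table, with summed levels of 5386 to 10848 CPM. Of 12 microglia and macrophage markers 10 were not in the table, among them *Aif1*, *Cx3cr1*, *Tmem119* and *Csf1r*, and these 10 had at most 20 reads in any library, while *P2ry12* stayed at or below 1.79 CPM. Markers of the oligodendrocyte lineage were present, at 2323 to 3958 CPM summed over 9 genes, as were neuronal markers, at 844 to 1187 CPM over 8 genes. Each sum rested on few genes. *Olig1* (1457 to 2813 CPM) and *Olig2* (338 to 800 CPM) made up most of the first, and *Mog* stayed at or below 0.434 CPM. *Map2* (781 to 1107 CPM) made up most of the second, and *Rbfox3*, *Syt1*, *Snap25*, *Nefl* and *Stmn2* each stayed at or below 7.59 CPM. The RNA is from whole wells, so a change in the share of a cell type and a change of RNA per cell cannot be told apart.

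In vehicle, *Rela* was the most abundant of the 10 transcripts and *Bcl3* the least. Levels of different genes are compared per length, as TPM, the length-scaled abundance from Salmon, summed over the transcripts of a gene. In WT vehicle *Rela* had 52.9 ± 2.80 TPM (SD, n = 4 litters), and every library of it lay above every library of *Nfkbib*, the next gene, at 35.2 TPM. *Nfkbib* and *Nfkbia* (33.2 TPM) overlapped. *Nfkb1* (20.3 TPM) and *Nfkb2* (15.5 TPM) followed, each clear of its neighbours. *Relb* (8.77 TPM), *Nfkbiz* (7.24 TPM) and *Nfkbie* (6.82 TPM) overlapped, and *Rel* (1.46 TPM) and *Bcl3* (0.258 TPM) came last. The *Nlrx1*-/- vehicle wells had the same order of mean TPM, and there *Nfkb1* (21.2 TPM) and *Nfkb2* (17.9 TPM) overlapped as well.

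After LPS + IFNγ the order changed. *Nfkbia* now came first, at 80.1 ± 20.9 TPM (SD, n = 4) in WT and 73.0 ± 13.7 TPM (SD, n = 4) in *Nlrx1*-/- astrocytes. *Rela* came second, at 50.3 and 50.5 TPM, and its highest WT library (55.6 TPM) passed the lowest of *Nfkbia* (54.9 TPM), whereas in *Nlrx1*-/- wells the libraries of both genes were apart. *Nfkbib*, *Nfkbiz*, *Nfkb2* and *Nfkb1* followed, at 26.9 to 37.5 TPM in WT and 36.0 to 41.4 TPM in *Nlrx1*-/- astrocytes, with each overlapping the next. *Bcl3* (4.16 and 5.14 TPM) now had a higher mean than *Rel* (2.23 and 2.11 TPM), with overlap in WT and none in *Nlrx1*-/- wells.

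The make-up of the subunit pool moved away from *Rela*. Of the TPM of the 5 subunits it held 53.4% ± 1.35 in vehicle and 39.2% ± 2.20 after treatment in WT astrocytes, and 49.4% ± 3.50 and 33.1% ± 3.93 in *Nlrx1*-/- astrocytes (SD, n = 4 each). *Relb* took 8.87% and then 16.2% in WT, and 8.73% and then 16.5% in *Nlrx1*-/-. *Nfkb2* took 15.7% and then 21.9% in WT, and 18.5% and then 25.8% in *Nlrx1*-/-. *Nfkb1* had group means of 20.5% to 23.2%. Among the 5 IκB genes *Nfkbib* went from 42.6% to 21.8% in WT and from 42.0% to 24.2% in *Nlrx1*-/-, while *Nfkbiz* went from 8.65% to 19.5% and from 9.01% to 22.6%. No litter of the treated wells overlapped a litter of the vehicle wells of its genotype for these shares of *Rela*, *Relb*, *Nfkb2*, *Nfkbib* and *Nfkbiz*. These shares are descriptions without a test.

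**Figure D1:**
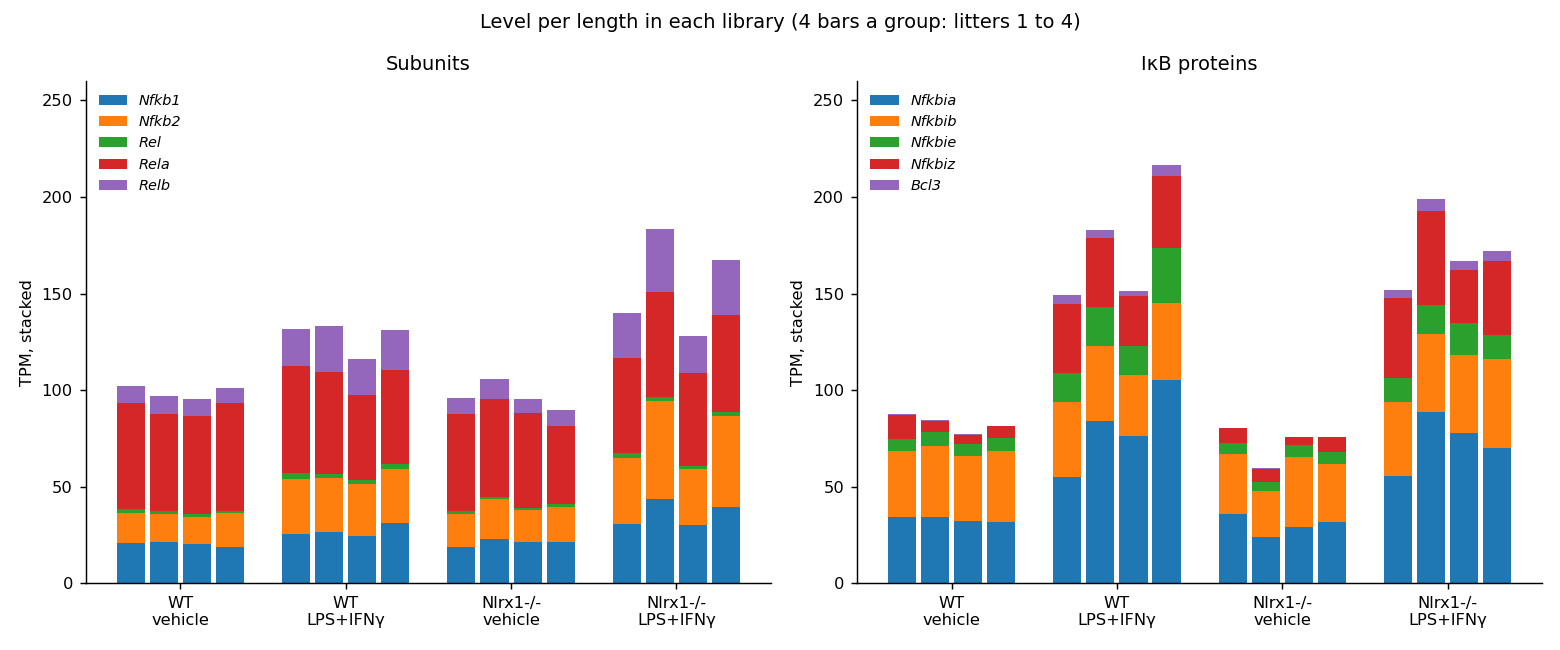
TPM of each member stacked in each of the 16 libraries, subunits on the left and IκB proteins on the right, with 4 bars (litters 1 to 4) per condition. The subunit total rose from 95.2 to 102 TPM in WT vehicle to 116 to 133 TPM in WT LPS + IFNγ, and reached 128 to 184 TPM in *Nlrx1*-/- LPS + IFNγ, and the segment of *Rela* kept a similar height in all conditions.

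The response to LPS + IFNγ was tested within litters with limma on log2 CPM, over all 16707 genes and with Benjamini-Hochberg adjustment, and a gene with an adjusted p under 0.05 is called changed. In WT astrocytes 9 of the 10 members rose, against 24.9% of all genes tested. In *Nlrx1*-/- astrocytes all 10 rose, against 26.6% of all genes. No member fell in either genotype. *Bcl3*, with 0 to 10 reads in vehicle wells, could pass the low-count filter only through treated wells, so its rise is not a test. Among the 12600 genes with a mean of at least 1 log2 CPM, which leave out *Bcl3*, 8 members rose in WT and 9 in *Nlrx1*-/- astrocytes. Of all 12600 genes 3833 and 4086 rose there. The median change of the members, *Bcl3* included, was 1.24 on the log2 scale in WT and 1.39 in *Nlrx1*-/- astrocytes, where the medians of all genes were -0.02 and -0.02. The largest responses belonged to the nuclear IκB genes and the smallest to *Rela* and *Nfkbib*. Cell type markers moved with treatment as well. Of 10 astrocyte markers 4 fell and 3 rose in WT, and 5 fell and 2 rose in *Nlrx1*-/- astrocytes. Of 9 oligodendrocyte lineage markers 5 and 7 fell, and of 5 ependymal markers 3 and 4 fell, where 21.9% and 25.5% of all genes fell. Of 5 fibroblast markers 2 and 3 fell. Of 8 neuronal markers 3 rose in each genotype, and 2 fell in WT and 3 in *Nlrx1*-/- astrocytes. Of 4 endothelial and mural markers 1 fell and 0 rose in WT, and 3 rose and 0 fell in *Nlrx1*-/- astrocytes. Of 2 microglia and macrophage markers 1 rose and 1 fell in each genotype. The part of these markers in the responses of the members was not tested.

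**Figure D2:**
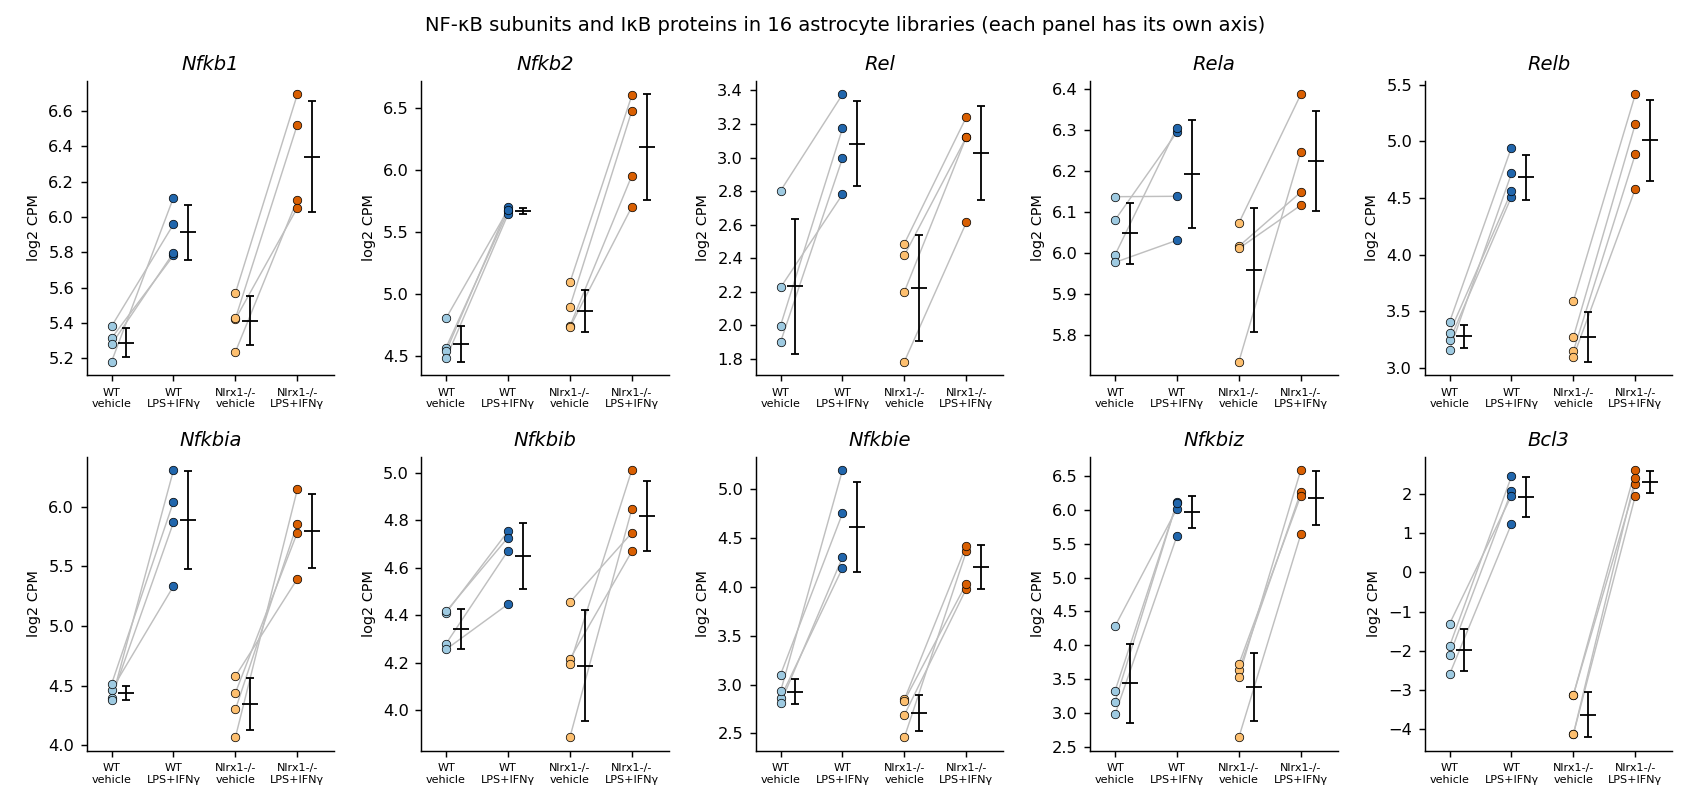
Log2 CPM of the 10 members (vertical axes, a scale for each panel) in the 4 conditions; points are litters, grey lines join the wells of a litter, and bars are mean ± SD. Every litter line points upward in all panels, by as little as 0.001 for *Rela* in WT litter 4 and by as much as 6.54 for *Bcl3* in *Nlrx1*-/- litter 4.

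Among the subunits *Relb*, which encodes the partner of p52, gave the largest response. Its WT vehicle wells had 3.24, 3.41, 3.31 and 3.16 log2 CPM in litters 1 to 4, and the treated wells had 4.51, 4.95, 4.56 and 4.72. The *Nlrx1*-/- values were 3.15, 3.59, 3.10 and 3.27 in vehicle and 4.89, 5.42, 4.58 and 5.15 after treatment. Treated and vehicle wells did not overlap in either genotype. *Relb* rose 2.65-fold in WT (log2 change 1.40, standard error 0.10, limma adjusted p = 2.41e-07) and 3.32-fold in *Nlrx1*-/- astrocytes (1.73, standard error 0.10, limma adjusted p = 3.43e-08).

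*Nfkb2*, the source of p100 and p52, rose from 4.57, 4.54, 4.48 and 4.80 log2 CPM in WT litters 1 to 4 to 5.67, 5.70, 5.64 and 5.68. Its *Nlrx1*-/- values rose from 4.74, 5.09, 4.73 and 4.90 to 5.95, 6.60, 5.70 and 6.48. The treated WT litters lay within 0.06 of each other, while the treated *Nlrx1*-/- litters spread over 0.90. The changes were 2.11-fold in WT (log2 1.07, standard error 0.09, limma adjusted p = 2.38e-06) and 2.49-fold in *Nlrx1*-/- astrocytes (log2 1.32, standard error 0.09, limma adjusted p = 3.5e-07).

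*Nfkb1*, the source of p105 and p50, rose from 5.31, 5.38, 5.28 and 5.18 log2 CPM to 5.78, 5.96, 5.80 and 6.11 in WT litters 1 to 4. The rise in *Nlrx1*-/- litters was from 5.24, 5.57, 5.42 and 5.43 to 6.10, 6.69, 6.05 and 6.52. WT litter 4, with the lowest vehicle and the highest treated value, had the largest WT response. The changes were 1.54-fold (log2 0.62, standard error 0.09, limma adjusted p = 0.000163) and 1.90-fold (log2 0.93, standard error 0.09, limma adjusted p = 5.52e-06).

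*Rel*, which encodes c-Rel, a subunit best known from lymphocytes, was low and rose in both genotypes. It went from 1.90 to 2.80 log2 CPM over the WT vehicle wells to 2.78 to 3.38 after treatment, and from 1.78 to 2.49 to 2.61 to 3.24 in *Nlrx1*-/- wells. WT litter 1 had the highest vehicle value of all 8 litters. The changes were 1.80-fold in WT and 1.74-fold in *Nlrx1*-/- astrocytes (limma adjusted p = 0.000422 and 0.000543).

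*Rela*, the main transactivating subunit, changed least. In WT litters 1 to 4 it had 6.08, 6.00, 5.98 and 6.14 log2 CPM in vehicle and 6.29, 6.31, 6.03 and 6.14 after treatment, a log2 change of 0.14 that was not called (standard error 0.07, limma adjusted p = 0.133). In *Nlrx1*-/- litters it had 6.02, 6.07, 6.01 and 5.74 in vehicle and 6.15, 6.39, 6.12 and 6.25 after treatment, a log2 change of 0.26 that was called (standard error 0.07, limma adjusted p = 0.0104). The WT groups overlapped and the *Nlrx1*-/- groups did not. The call rested on *Nlrx1*-/- litter 4, without which the change of *Rela* was 0.18 (limma adjusted p = 0.0613).

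The direction for *Rela* also depended on the scaling of the libraries. When the CPM were rescaled to library totals without the TMM factor, the median of all genes moved by -0.17 in both genotypes, and *Rela* changed by -0.02 in WT and by 0.09 in *Nlrx1*-/- astrocytes (limma adjusted p = 0.794 and 0.287). This rescaling and the TPM comparison were chosen after the data were seen. In TPM, which has no such factor either, *Rela* changed by -0.08 ± 0.14 (SD, n = 4) and by 0.08 ± 0.17 (SD, n = 4) on the log2 scale, upward in 2 of 4 litters of each genotype. Without the factor 2598 genes rose and 6036 fell in WT, where with it 4154 rose and 3656 fell, and the corresponding numbers in *Nlrx1*-/- astrocytes were 2836 and 6527 against 4448 and 4256.

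Of the classical inhibitors *Nfkbie* and *Nfkbia* rose in both genotypes. *Nfkbia*, the inhibitor whose induction ends a pulse of NF-κB activity, had 4.46, 4.51, 4.40 and 4.38 log2 CPM in WT vehicle wells and 5.33, 6.04, 5.87 and 6.31 in treated wells. The *Nlrx1*-/- litters had 4.58, 4.07, 4.30 and 4.44 in vehicle and 5.40, 6.15, 5.86 and 5.78 after treatment. Litter 1 responded least in both genotypes, by 0.87 and 0.82, and the largest responses were 1.93 in WT litter 4 and 2.08 in *Nlrx1*-/- litter 2. The means were 2.74-fold and 2.73-fold (limma adjusted p = 4.27e-05 and 3.54e-05).

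*Nfkbie*, which holds mainly c-Rel and RelA dimers, rose from 2.87, 3.10, 2.81 and 2.93 to 4.19, 4.75, 4.30 and 5.19 log2 CPM in WT litters 1 to 4. Across *Nlrx1*-/- litters it rose from 2.69, 2.46, 2.85 and 2.84 to 3.98, 4.36, 4.42 and 4.03. As for *Nfkbia*, the largest response was in WT litter 4 (2.26) among WT litters and in *Nlrx1*-/- litter 2 (1.90) among *Nlrx1*-/- litters. The changes were 3.21-fold and 2.81-fold (limma adjusted p = 3.65e-06 and 8.15e-06).

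*Nfkbib*, whose protein IκBβ is degraded and remade more slowly than IκBα, moved by far less. It had 4.28, 4.41, 4.26 and 4.42 log2 CPM in WT vehicle and 4.67, 4.75, 4.45 and 4.73 after treatment. In *Nlrx1*-/- litters it had 4.22, 3.89, 4.46 and 4.19 in vehicle and 4.67, 4.85, 4.75 and 5.01 after treatment. It was called in WT at 1.24-fold (log2 0.31, limma adjusted p = 0.0279) and in *Nlrx1*-/- astrocytes at 1.55-fold (log2 0.63, limma adjusted p = 0.000306). The WT call of *Nfkbib* was lost without the TMM factor (log2 0.14, limma adjusted p = 0.248), and without WT litter 1, 2 or 4, where adjusted p reached 0.097.

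The nuclear IκB genes responded most. *Nfkbiz* had 4.28, 3.17, 2.98 and 3.33 log2 CPM in WT vehicle wells and 6.02, 6.11, 5.61 and 6.10 in treated wells. Wells of *Nlrx1*-/- litters had 3.63, 3.54, 2.65 and 3.72 in vehicle and 6.26, 6.58, 5.64 and 6.21 after treatment. The rise was 5.74-fold in WT (log2 2.52, standard error 0.16, limma adjusted p = 1.68e-07) and 6.90-fold in *Nlrx1*-/- astrocytes (log2 2.79, standard error 0.16, limma adjusted p = 6.41e-08). WT litter 1, with the highest vehicle level, had the smallest response, 1.73.

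*Bcl3* was close to silent in vehicle and clearly present after treatment. The WT vehicle wells had 5, 10, 5 and 8 reads in litters 1 to 4 and the treated wells 120, 129, 66 and 214. The *Nlrx1*-/- litters gave 0, 2, 2 and 0 reads in vehicle and 130, 171, 178 and 187 after treatment. Relative to library totals, the 4 treated libraries pooled had 19.2 times the WT vehicle reads (exact 95% interval 13.1 to 29.2) and 172 times the *Nlrx1*-/- vehicle reads (66.8 to 633), intervals that cover counting error only. The log2 change of *Bcl3* from limma was 3.91 in WT and 5.93 in *Nlrx1*-/- astrocytes, given without p because the low-count filter fixed the rise in advance. The size of this change hangs on the offset for low counts, and with 1 CPM added it was 1.99 and 2.52.

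**Figure D3:**
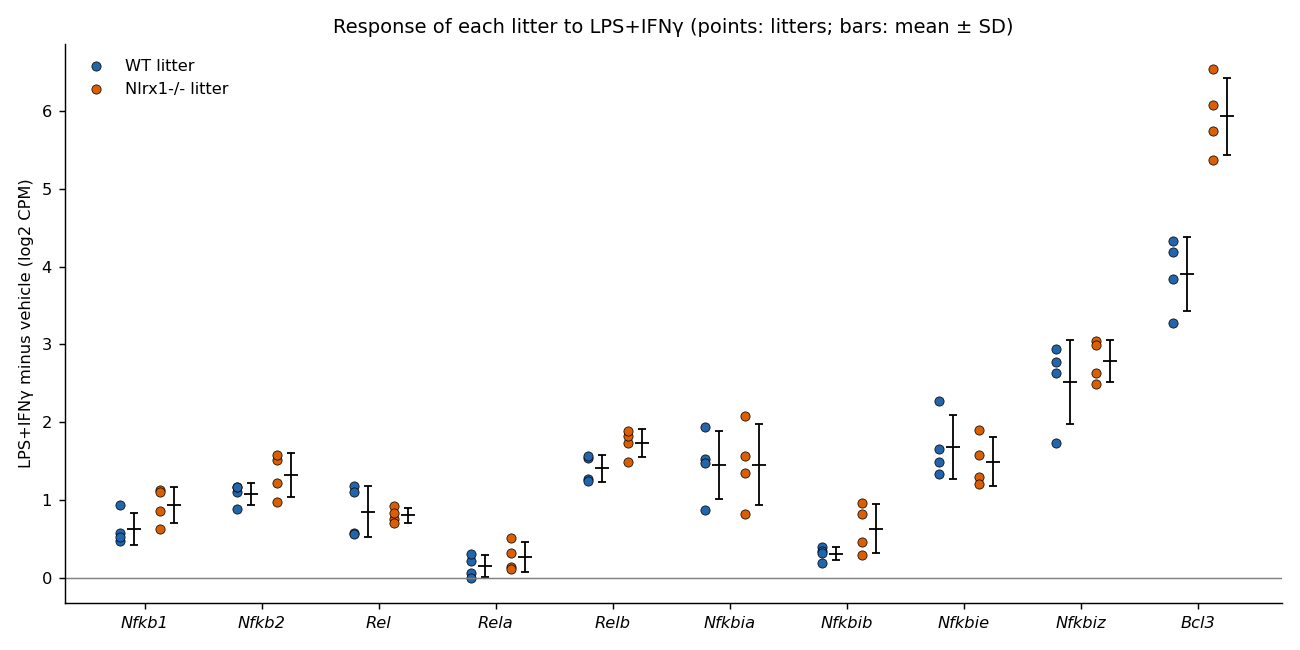
Response to LPS + IFNγ of each litter (treated minus vehicle well, log2 CPM) for the 10 members, WT in blue and *Nlrx1*-/- in orange, with mean ± SD over 4 litters. Only for *Bcl3* do the genotypes stand apart, at 3.27 to 4.33 in WT and 5.37 to 6.54 in *Nlrx1*-/- litters. Its *Nlrx1*-/- vehicle wells held 0 to 2 reads, so the size of this gap hangs on the offset for low counts. The share of all genes whose litter responses do not overlap is not given here.

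For *Nfkb2* and *Relb* the responses went with a shift between annotated transcripts, as Salmon split the reads. The *Nfkb2* transcript NM_001177369.1 made up 51.0%, 15.5%, 54.6% and 36.6% of the gene's TPM in WT vehicle wells and 80.7%, 68.7%, 78.2% and 68.4% in treated wells. The *Nlrx1*-/- shares were 53.0%, 55.2%, 61.1% and 38.8% in vehicle and 67.2%, 80.5%, 68.0% and 73.0% after treatment. The share rose in every litter. The level of the other main *Nfkb2* transcript, NM_019408.3, was 7.67 ± 3.09 and then 6.23 ± 1.33 TPM in WT wells, and 7.94 ± 1.68 and then 7.64 ± 1.96 TPM in *Nlrx1*-/- wells (SD, n = 4 each).

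*Relb* showed the same kind of shift with more scatter. Its transcript NM_009046.2 held 44.8%, 42.0%, 70.3% and 85.5% in WT vehicle and 90.0%, 88.4%, 90.6% and 81.7% after treatment. In *Nlrx1*-/- litters it held 52.3%, 70.6%, 54.1% and 76.4% and then 90.3%, 96.3%, 84.4% and 88.4%. The share rose in 7 of 8 litters, and WT litter 4 was the exception. *Rela*, *Nfkbib*, *Nfkbie* and *Nfkb1* were each mostly 1 transcript in all conditions, at group means of 87.2% or more, and *Rel* and *Nfkbia* had a single one. The paired *Relb* transcripts missed part of the deposited *Relb* signal, by up to 0.13 on the log2 scale in vehicle wells and up to 0.05 in treated wells, so its shares and TPM lack some reads. Estimated splits carry an error that these files do not hold, and no test was run on them.

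**Figure D4:**
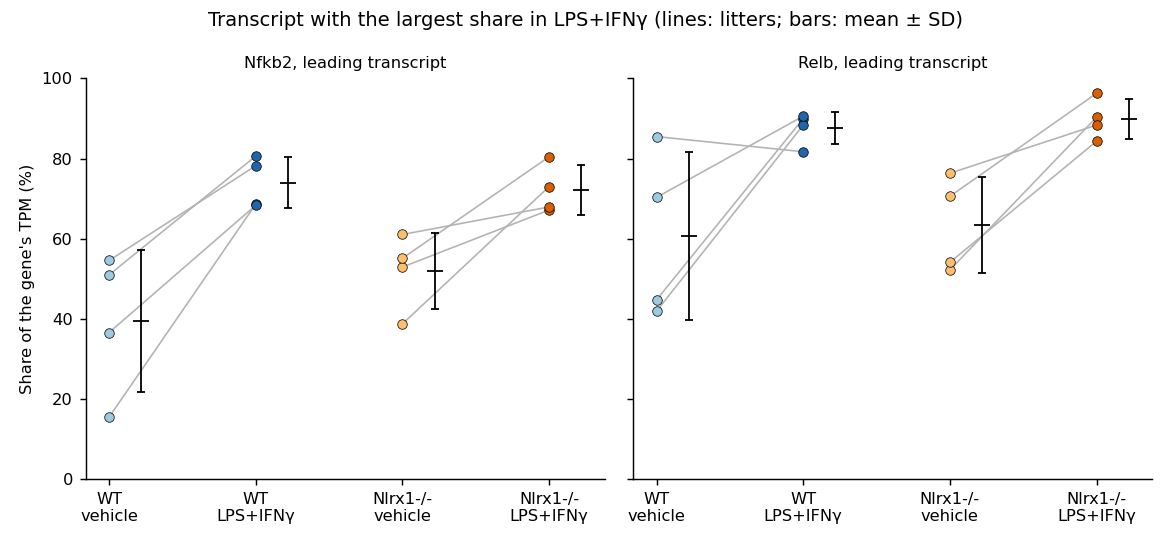
Share of the gene's TPM (percent) held by the leading transcript of *Nfkb2* (left) and *Relb* (right); points are litters, lines join the wells of a litter, and bars are mean ± SD. Vehicle wells spread from 15.5% to 61.1% for *Nfkb2* and from 42.0% to 85.5% for *Relb*, and treated wells from 67.2% to 80.7% and from 81.7% to 96.3%.

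The libraries have no strand information, so that reads of exons shared with a gene on the opposite strand cannot be assigned by strand. In GENCODE M39, 24.5% of the exon bases of *Nfkb2* overlap *Psd* and 13.7% overlap 4833438C02Rik, both on the opposite strand. For *Nfkbib* the opposite-strand genes *Ccer2* and Gm71901 share 13.3% and 14.3% of its exon bases. Overlaps of *Nfkbia*, *Bcl3*, *Rela* and *Nfkb1* covered 2.1% to 7.3%, and *Rel*, *Relb*, *Nfkbie* and *Nfkbiz* had none.

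Whether loss of NLRX1 changed the responses was tested as the difference between the responses of the genotypes. No member was called, and limma called 0 of 16707 genes (0%), with 2786 at an unadjusted p under 0.05. By edgeR the count was also 0, and DESeq2 called 111 genes higher and 185 lower. The response was larger in *Nlrx1*-/- astrocytes for 7 members and smaller for 3, with a median difference of 0.26. At an unadjusted p under 0.05 there were 4 members, *Bcl3*, *Relb*, *Nfkb1* and *Nfkbib*, all with the larger response in *Nlrx1*-/- astrocytes.

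*Bcl3* had the largest difference between the responses, 2.02 (standard error 0.44, limma adjusted p = 0.164). The responses of its WT litters were 4.19, 3.27, 3.84 and 4.33 and those of the *Nlrx1*-/- litters 6.08, 5.74, 5.37 and 6.54, without overlap (exact permutation test over litters, two-sided, p = 0.0286, the smallest that 4 against 4 allow and unadjusted for 10 genes). DESeq2 called the difference of *Bcl3* (3.32, adjusted p = 0.0351), as did limma without *Nlrx1*-/- litter 3 (2.21, adjusted p = 0.0321). Between the genotypes *Bcl3* differed by -1.65 in vehicle wells, which had 0 to 10 reads, and by 0.37 in treated wells, which overlapped. With 1 CPM added the difference of the responses was 0.53 (limma adjusted p = 0.238).

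*Relb* followed with a difference of 0.33 (standard error 0.13, limma adjusted p = 0.255). Its responses were 1.27, 1.54, 1.25 and 1.56 in WT litters and 1.74, 1.82, 1.48 and 1.88 in *Nlrx1*-/- litters, where litter 3 alone fell among the WT values (exact permutation test, two-sided, p = 0.0857). *Nfkbib* differed by 0.32 (limma adjusted p = 0.296), with WT responses of 0.19 to 0.39 and *Nlrx1*-/- responses of 0.45, 0.96, 0.29 and 0.82. *Nfkb1* differed by 0.31 (limma adjusted p = 0.269), with *Nlrx1*-/- responses of 0.86, 1.12, 0.63 and 1.10 against 0.47 to 0.93 in WT.

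For all 3 genes litter 3 gave the smallest *Nlrx1*-/- response, and litters 2 and 4 the largest. The same held for *Nfkb2*, at 1.21, 1.51, 0.97 and 1.58 in *Nlrx1*-/- litters against 0.88 to 1.16 in WT litters (difference 0.24, limma adjusted p = 0.379). The other members differed by -0.19 (*Nfkbie*) to 0.27 (*Nfkbiz*), with limma adjusted p of 0.600 or more, and the mean responses of *Nfkbia* differed by less than 0.01.

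In vehicle no member was called between the genotypes. The only gene called by limma among the 16707 (0.00599%) was *Nlrx1* itself. *Bcl3* came closest, with 5 to 10 reads in WT wells and 0 to 2 in *Nlrx1*-/- wells, a log2 difference of -1.65 (limma adjusted p = 0.0928). The reads of the 4 libraries together stood at 0.133 of the WT level (exact 95% interval 0.0339 to 0.380). This interval covers counting error only and leaves out the spread between litters. *Bcl3* was called as lower by DESeq2 (-2.93, adjusted p = 0.0196), and by limma without WT litter 1 (-1.69, adjusted p = 0.0466) or *Nlrx1*-/- litter 3 (-1.82, adjusted p = 0.0152). With 1 CPM added the difference was -0.23 (limma adjusted p = 0.440). The remaining members differed by -0.22 (*Nfkbie*) to 0.27 (*Nfkb2*), with limma adjusted p of 0.324 or more.

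In LPS + IFNγ *Nfkb1* and *Nfkb2*, the precursor subunits, were higher in *Nlrx1*-/- than in WT astrocytes, 2 of 10 members against 4.40% of all genes. *Nfkb1* had 5.78, 5.96, 5.80 and 6.11 log2 CPM in WT wells and 6.10, 6.69, 6.05 and 6.52 in *Nlrx1*-/- wells, so that the lower pair of *Nlrx1*-/- litters lay just below the highest WT litter. The difference was 0.43, or 1.35-fold (standard error 0.13, limma adjusted p = 0.0461). *Nfkb2* had 5.64 to 5.70 in WT wells, and all *Nlrx1*-/- wells were above, from 5.702 in litter 3 to 6.60 in litter 2. The difference was 0.51, or 1.43-fold (standard error 0.15, limma adjusted p = 0.0497), and the exact permutation test over litters gave p = 0.0286 for *Nfkb2* and 0.0857 for *Nfkb1* (two-sided).

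Both calls lay at the threshold. By edgeR the adjusted p was 0.0545 for *Nfkb1* and 0.0520 for *Nfkb2*, and by DESeq2 both were called. Leaving out any WT litter ended both calls, as did leaving out *Nlrx1*-/- litter 2 or 4, with differences of 0.31 to 0.50 for *Nfkb1* and 0.37 to 0.52 for *Nfkb2*, and without *Nlrx1*-/- litter 1 the call of *Nfkb2* was lost at 0.59. Without *Nlrx1*-/- litter 3 the differences were 0.53 for *Nfkb1* and 0.67 for *Nfkb2* (limma adjusted p = 0.0103 and 0.00428), and *Relb* was called too, at 0.47 (adjusted p = 0.0321).

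*Relb* with all litters differed by 0.33 (limma adjusted p = 0.181), with 4.51 to 4.95 log2 CPM in WT and 4.58 to 5.42 in *Nlrx1*-/- wells. *Nfkbie* was the member with the lowest difference, -0.41 (limma adjusted p = 0.151), at 4.19, 4.75, 4.30 and 5.19 in WT and 3.98, 4.36, 4.42 and 4.03 in *Nlrx1*-/- wells, where WT litter 4 stood highest. *Rela*, *Rel* and *Nfkbia* differed by 0.03, -0.06 and -0.09. Summed over the classical inhibitors and divided by the summed subunits, TPM gave a ratio of 0.760 ± 0.034 and then 1.07 ± 0.204 in WT wells, and 0.692 ± 0.129 and then 0.842 ± 0.142 in *Nlrx1*-/- wells (SD, n = 4 each), with overlap of the genotypes in both treatments.

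**Figure D5:**
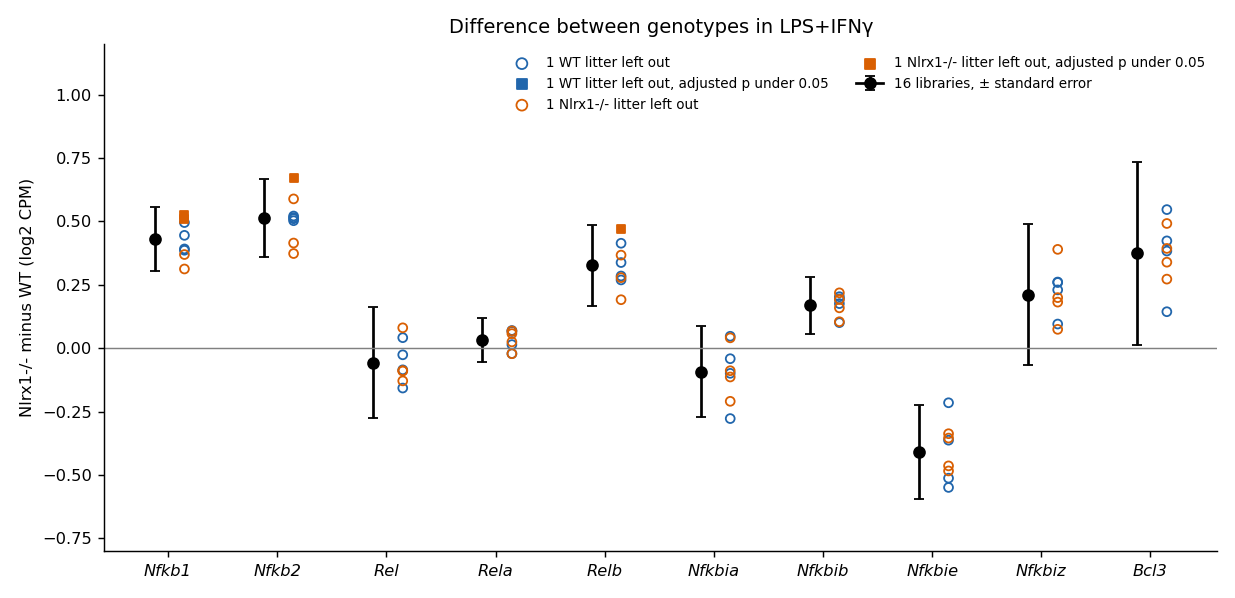
Difference of *Nlrx1*-/- from WT in LPS + IFNγ (log2 CPM) for the 10 members; black points with standard errors use all 16 libraries, and coloured symbols leave out 1 litter each, filled squares where the adjusted p was under 0.05. For *Nfkb1* and *Nfkb2* every symbol lies above 0, from 0.31 to 0.53 and from 0.37 to 0.67, yet most are open circles.

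Astrocyte markers moved with the same contrast. In LPS + IFNγ the 10 markers summed to 6319 to 9453 CPM in WT and 5391 to 7265 CPM in *Nlrx1*-/- wells, none of them was 0, and 5 of the 10 were called lower in *Nlrx1*-/- wells (*S100b*, *Aqp4*, *Gja1*, *Slc1a2* and *Aldoc*), against 4.41% of all genes. The oligodendrocyte lineage list summed to 2642 to 3241 CPM in WT and 2323 to 3054 CPM in *Nlrx1*-/- wells, with 2 of 9 lower, and the neuronal list to 873 to 1033 and 937 to 1187 CPM, with 0 of 8 called. The ependymal list (5 of 6 in the table, *Tmem212* not) summed to 127 to 185 and 77.0 to 124 CPM, with 2 lower. The fibroblast list (5 genes) summed to 19.1 to 31.8 and 15.7 to 48.2 CPM, and the endothelial and mural list (4 of 7 in the table, *Cldn5*, *Pecam1* and *Cdh5* not) to 98.6 to 174 and 102 to 145 CPM, with none called. In the treated *Nlrx1*-/- wells of litters 1 to 4 *Aqp4* stood at 283, 152, 435 and 181 CPM and *Mbp* at 11.7, 1.55, 39.5 and 1.60 CPM. Litters 2 and 4, which had the highest *Nfkb1* and *Nfkb2* there, were thus the lowest of the 4. The same held for each astrocyte marker other than *Slc1a3* and *Aldh1l1*. The part of these markers in the differences of *Nfkb1* and *Nfkb2* was not tested.

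Among the 16707 genes, those whose pattern over the 16 libraries was nearest to a member were found by the root mean square difference of log2 CPM after centring each gene. *Nfkbia* and *Nfkbie* were each other's second nearest gene, at 0.21, behind *Inpp1* for *Nfkbia* (0.20) and *Pnp* for *Nfkbie* (0.19). No other member was among the 2 genes nearest to a member. *Nfkb1* was nearest to *Tbrg1* (0.10) and *Vps54* (0.12), and *Nfkb2* to *Ddr2* (0.11) and *Xbp1* (0.13). *Relb* was nearest to *Itpr1* (0.15) and *Ascc3* (0.16), *Rel* to *Jak2* (0.21) and 4930453N24Rik (0.22), and *Rela* to *Samd4b* (0.07) and *Nrbp1* (0.08). *Nfkbib* was nearest to *Nfe2l2* (0.08) and *Tfe3* (0.10), and *Nfkbiz* to *Zc3hav1* (0.32) and *Egln3* (0.34). For *Bcl3* even the nearest genes, Gm51898 and *Mndal*, were at 0.65 and 0.69.

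The pathway lists are set beside all genes tested, of which 24.9% rose and 21.9% fell in WT and 26.6% rose and 25.5% fell in *Nlrx1*-/- astrocytes, with medians of -0.02 in both. Of 25 upstream kinases and adaptors 15 (60.0%) rose and 1 (*Traf6*) fell in WT, with a median of 0.33, and 19 (76.0%) rose and 2 (*Tab1* and *Irak4*) fell in *Nlrx1*-/- astrocytes, with a median of 0.42. The largest rises, averaged over the genotypes, were those of *Cd40*, a receptor that activates the p100 branch, *Myd88*, the adaptor of TLR4, and *Tlr4* itself. *Myd88* went from 2.55 to 5.09 log2 CPM in WT and from 2.52 to 5.32 in *Nlrx1*-/- astrocytes (limma adjusted p = 6.02e-08 and 2.31e-08). *Tlr4* went from 2.72 to 4.33 and from 2.41 to 4.68 (limma adjusted p = 2.32e-05 and 1.14e-06). *Cd40* went from -2.69 to 0.24 and from -2.37 to 0.50, where a count of 0 stands at -4.13. With vehicle wells this low, *Cd40* may have passed the low-count filter only through treated wells. Its rise is part of the shares above but is not taken as a test. No gene of this list was called between genotypes.

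Among the feedback regulators, 14 of 15 were in the table (*Tnip3* was not), and 8 (57.1%) rose in each genotype, and 3 fell in WT (*Irak3*, *Tollip* and *Pdlim2*) and 2 in *Nlrx1*-/- astrocytes (*Irak3* and *Pdlim2*), with medians of 0.64 and 0.60. *Tnfaip3*, which encodes the deubiquitinase A20, went from 0.70 to 3.96 log2 CPM in WT and from 0.85 to 4.42 in *Nlrx1*-/- astrocytes (limma adjusted p = 1.79e-06 and 7.2e-07). *Rnf31*, a ubiquitin ligase of linear chains that is on this list without being a brake on the pathway, went from 4.54 to 6.15 and from 4.56 to 6.15. *Irak3*, a brake on TLR signaling, went from -1.22 to -2.81 and from -0.78 to -1.92. *Trib3*, a pseudokinase also induced by endoplasmic reticulum stress, was the list's only gene called between genotypes, at 0.49 ± 1.03 in WT and 3.37 ± 1.77 log2 CPM in *Nlrx1*-/- LPS + IFNγ (SD, n = 4; limma adjusted p = 0.0369). It was 1 of 14 genes (7.1%), against 4.40% of all genes called higher there. *Nfkbid*, which encodes a further nuclear IκB protein and is part of this list, was not called in any comparison.

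Of the textbook NF-κB target genes, 22 of 30 were in the table, and the shares below cover only these genes, which passed the filter on low counts. A gene at 0 in vehicle wells, such as *Saa3*, could pass only through treated wells, so its rise was fixed in advance. In WT 21 (95.5%) rose and 1 (*Traf1*, -0.56 on the log2 scale, limma adjusted p = 0.0373) fell, and 20 (90.9%) rose and 0 fell in *Nlrx1*-/- astrocytes, with medians of 2.44 and 3.46. Averaged over the genotypes, the largest rises were those of the chemokines *Cxcl10* and *Ccl5* and of *Lcn2*, which encodes lipocalin-2, a marker of reactive astrocytes. In treated wells *Cxcl10* reached 10.28 log2 CPM in WT and 10.59 in *Nlrx1*-/- astrocytes, *Lcn2* 5.88 and 6.79, and *Ccl5* 5.32 and 5.95. *Ccl5* was listed at 0 reads in all WT vehicle wells, so no fold is given for it. *Saa3*, an acute phase gene, was the list's only gene called between genotypes, at -1.08 ± 0.87 in WT and 0.66 ± 0.99 log2 CPM in *Nlrx1*-/- LPS + IFNγ (SD, n = 4; limma adjusted p = 0.0443), and at 0 in all vehicle wells. It was 1 of 22 genes (4.5%), near the 4.40% of all genes called higher. The cytokine genes *Tnf*, *Il6*, *Il1a* and *Il1b* were not in the table and had at most 19 reads in a library.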

How the data were processed

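Per the labels, poly-A libraries were sequenced without strand information, and the authors quantified them with Salmon 1.7.0 against GRCm39 RefSeq transcripts, which gave estimated counts (expected counts, not normalized) and TPM. With tximport and limma 3.58.1 the authors filtered low counts and deposited CPM, a signal on TMM-scaled library sizes whose columns differ in their sums, and its log2, which was log2(CPM + 0.0573), so that a count of 0 stands at -4.13. Fold changes therefore understate low genes. Counts and TPM were summed per symbol for transcripts whose accession could be paired (96.7% to 97.3% of reads).

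Limma 3.58.1 (lmFit, eBayes with trend, R 4.3.3) was fitted to log2 CPM of 16707 genes, with litter terms for the responses and their difference, and on the 4 conditions for genotype. The labels say that the wells of a litter came from the same mice. Deviations from the condition means correlated across genes at r = 0.073 to 0.355 within litters (median 0.218) and -0.353 to 0.154 between litters (median -0.052). WT and *Nlrx1*-/- litters share only a number. Expected counts were rounded and tested with edgeR 4.0.16 and DESeq2 1.42.0 as alternatives, with a minimum count of 10. Exact permutation tests used scipy 1.17.1. The fits were tested on simulated data.

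Named genes are the 10 members, *Nlrx1*, the 2 genes nearest to each member, and from each pathway list the 3 largest rises, the largest fall and genes called between genotypes. Other genes were named after their values were seen. The members and lists were chosen with earlier results of these data known. All 16 libraries were mapped to groups. The number of litters, 4 a genotype, limits the precision.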

Additional observations from a re-analysis of the deposited data

Results flagged for a closer look

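Of 60 sets of 4 values (10 members in 4 conditions, and the litter responses in 2 genotypes), 1 held a value far from the rest, where chance alone gives about 1 in 20. *Nfkbiz* in *Nlrx1*-/- vehicle litter 3 was at 2.65 log2 CPM, and the other litters were at 3.54 to 3.72, a gap of 0.83 of the range that just passed Dixon's critical value. *Rel* was also lowest in that well, at 1.78, and *Nlrx1* lowest in both wells of the litter, at 1.84 and 1.09. Without *Nlrx1*-/- litter 3 the genotype difference of *Nfkbiz* in vehicle was 0.19, where it was -0.06 with it (limma adjusted p = 0.64 and 0.935).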

How the results depend on the processing

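With limma on all litters, 9 members rose in WT and 10 in *Nlrx1*-/- astrocytes, 0 differed in response or in vehicle, and 2 were higher in *Nlrx1*-/- wells after LPS + IFNγ. The counts of members that rose stayed within 1.5 times these under all alternatives, at 8 to 9 in WT and 9 to 10 in *Nlrx1*-/- astrocytes when 1 litter was left out, with 6207 to 8145 and 7349 to 8480 genes called.

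The genotype counts depended on the method, and the cause was not tested. For the difference of responses, where limma called 0 genes, DESeq2 called 296 genes and 1 member higher, edgeR without a count filter called 1 gene, and leaving out 1 litter gave 0 to 822 genes and 0 to 1 member. In vehicle, where limma called 1 gene, the count was 0 with edgeR, edgeR with DESeq2 size factors, a mean of at least 1 log2 CPM, no trend, the 8 vehicle libraries alone or an adjusted p under 0.01, and DESeq2 called 735 genes and 1 member lower. Leaving out 1 litter gave 0 to 1618 genes and 0 to 1 member lower. After LPS + IFNγ, where limma called 735 genes higher and 736 lower, no member was called (0) by edgeR (808 genes), with DESeq2 size factors (863), without a count filter (552), without trend (2), in the 8 treated libraries alone (1) or at an adjusted p under 0.01 (1), and 1 member with the robust option. DESeq2 called 2438 genes there, and leaving out 1 litter gave 1 to 3868 genes and 0 to 3 members.

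WT and *Nlrx1*-/- litters share only a number, and same-numbered libraries correlated at -0.089 to 0.18. With the replicate block across genotypes 591 genes and 1 member lower (*Bcl3*, -1.65, limma adjusted p = 0.0387) were called in vehicle and 2815 genes and 2 members after LPS + IFNγ. Without the litter terms the responses kept 9 and 10 members, with 5954 and 6949 genes.

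By CPM in place of TPM, *Rela* made up 45.94% and 33.46% of the subunits in WT vehicle and LPS + IFNγ and 41.96% and 27.87% in *Nlrx1*-/-, and *Nfkbia* 35.49%, 33.98%, 36.28% and 30.96% of the IκB genes. Signs turned for the following differences, none of them called with all litters. The WT response of *Rela* was -0.0235 without TMM and -0.0764 in log2 TPM, both chosen after seeing the data. *Nfkbia* differed in response by 0.0039 with DESeq2. *Relb* in vehicle was 0.0058 with edgeR, 0.002 with DESeq2, 0.0018 with DESeq2 size factors and 0.0083 without a count filter. With 1 litter left out the sign turned for *Nfkbia* after LPS + IFNγ (-0.2779 to 0.0469), in vehicle (-0.1696 to 0.0013) and in response (-0.2111 to 0.2102), *Nfkbie* in response (-0.3283 to 0.0024), *Nfkbiz* in vehicle (-0.2079 to 0.2252), *Rel* after LPS + IFNγ (-0.1574 to 0.0802), in vehicle (-0.1197 to 0.1805) and in response (-0.1459 to 0.0608), *Rela* after LPS + IFNγ (-0.022 to 0.0696) and *Relb* in vehicle (-0.1057 to 0.0582). *Bcl3* did not pass the filter on a mean of 1 log2 CPM, and its vehicle values rest on at most 10 reads.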
